A study of Mus musculus with 11 samples.

Results

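Tight junction and desmosome genes were compared between muscle spindles and the extrafusal muscle fibers beside them. The members are the genes whose symbols name claudins (*Cldn19*, a claudin of peripheral myelin, was left to the markers of Schwann cells), occludin and the other MARVEL proteins, junctional adhesion molecules, the tight junction plaque proteins of the *Tjp* and cingulin families, desmosomal cadherins, desmosomal plaque proteins, *Perp* and the plakins *Ppl* and *Evpl*. The table holds 22384 genes, each with 5 or more reads in some library, and 37 of them are members, 20 of them tight junction genes and 17 desmosome genes. They were chosen by symbol and not by their values. The RNA of intact spindle bundles (spindle, 5 libraries, mice 9, 10, 12, 13 and 16) and of adjacent extrafusal fibers (muscle, 6 libraries, the same mice and mouse 11) from the deep masseter of adult mice was sequenced after selection of polyadenylated transcripts. All animals carried *Piezo2* EGFP-IRES-Cre and the *Rosa26* tdTomato reporter, in muscle as in spindle samples, and the reporter, which marks sensory neurons, intrafusal fibers and capsule cells, guided the dissection. Each spindle sample pooled a number of spindles of 1 mouse, so a value averages over fibers, nerve endings, Schwann cells, capsule and vessels, and in such bulk samples fewer cells of a type and less RNA per cell cannot be told apart.

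Tight junctions seal the gap between neighbouring cells. Claudins and occludin form strands in the membrane, junctional adhesion molecules stand beside them, and scaffold proteins of the plaque tie the strands to actin. Desmosomes are adhesive spots in which cadherins of the desmoglein and desmocollin families bind across the gap and plakoglobin, plakophilins and desmoplakin link them to intermediate filaments. The perineurium that sheathes peripheral nerves continues as the outer capsule of the spindle, and tight junctions between its flat cells are known to form a diffusion barrier around the nerve and the fluid space of the spindle. Blood vessels have tight junctions of their own, built on claudin 5.

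Total counts per library ranged from 8354260 to 23430654. Values below are normalized counts, that is, read counts divided by the library size after TMM scaling relative to the geometric mean of the libraries, and fold changes are log2 values of spindle over muscle with their standard error from edgeR's quasi-likelihood test, with p-values adjusted over all 22384 genes by the method of Benjamini and Hochberg. A call required a mean of 5 normalized counts or more, an adjusted p of 0.05 or less and a log2 fold change of 1 or more in either direction. The 6 genes of intrafusal fibers summed to 781 to 1189 CPM (reads per 1000000 reads, TMM-scaled) in spindle libraries and 2.47 to 8.40 in muscle libraries, and the 6 genes of fast extrafusal fibers to 13351 to 17878 in spindle libraries and 36739 to 62607 in muscle libraries. Of the fast fiber genes, 4 were called lower in spindle and 1, the myosin *Myh4*, was called higher (log2 fold change 3.47). Reads of 444 odorant receptor genes, which neither tissue is known for, summed to 144 to 228 CPM in spindle libraries 9, 10, 12 and 13, 17.2 CPM in spindle library 16 and 9.22 to 63.3 CPM in muscle libraries.

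Some members of both kinds of junction were higher in spindle. Log2 fold changes ran from 3.95 to 6.52 for the desmosome gene *Perp* and the tight junction genes *Cgn*, *Ocln*, *Cldn1* and *Cldn11*. Of 37 members, 10 were called higher in spindle and none was called lower, where 11% of all genes were called higher and 1.8% lower. The 10 were the claudins *Cldn1*, *Cldn11* and *Cldn3*, occludin (*Ocln*), *Marveld1*, cingulin (*Cgn*) and paracingulin (*Cgnl1*) among 20 tight junction genes, and plakophilin 2 (*Pkp2*), *Perp* and periplakin (*Ppl*) among 17 desmosome genes. Calls upward thus covered 35% of the tight junction genes and 17.6% of the desmosome genes. By the adjusted p alone, 17 members were higher, where the share among all genes was 23.6%, and 2 members, *Cldn12* and *Jup*, were lower, where the share among all genes was 15%. Of the 17 higher, 13 were among the 20 tight junction genes. The other 4 were among the 17 desmosome genes, a share close to that of all genes. At an unadjusted p under 0.05 in edgeR, 26 members were higher, where the share among all genes was 31.8%, and 2 were lower, where it was 18.2%. DESeq2 called 12 members higher and 0 lower, and limma-voom called 10 higher and 0 lower.

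The median log2 fold change of the 37 members was 1.74, against 0.29 over all genes tested. With the members split, it was 1.23 for the tight junction genes and 1.85 for the desmosome genes. Setting *Pkp1*, which had no read in muscle, to its lower bound could not change the median of the 37, since its fitted value and its bound both lie above 1.74. Under the stricter count filter of edgeR, which left 20 members, the median was 1.002, against -0.0039 over all genes left. A mean of 5 normalized counts or more was reached by 10 of the 17 desmosome genes and 16 of the 20 tight junction genes. Fold changes were positive for 35 members and negative for 2, where the median over all genes was itself above 0, at 0.29. For members with few reads the sign is weakly determined. Every spindle library lay above every muscle library for 14 members, where this held for 9.15% of all genes, and every spindle library lay below every muscle library for 1 member, *Jup*, where this held for 8.65% of all genes. Within the 5 mice with both tissues, 17 members were higher in the spindle sample of every mouse, where this held for 16.8% of all genes, and 2 were lower in every mouse, where this held for 17.5%. The direction of a fold change near 0 depends on the scaling. With library size alone in place of TMM, the median over all genes was 0.60, 17 members were called higher and 96.2% of all calls were higher, against 86.0% with TMM and 65.5% when the median gene was set to 0, where 9 members were called higher and 1 lower.

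**Figure D1:**
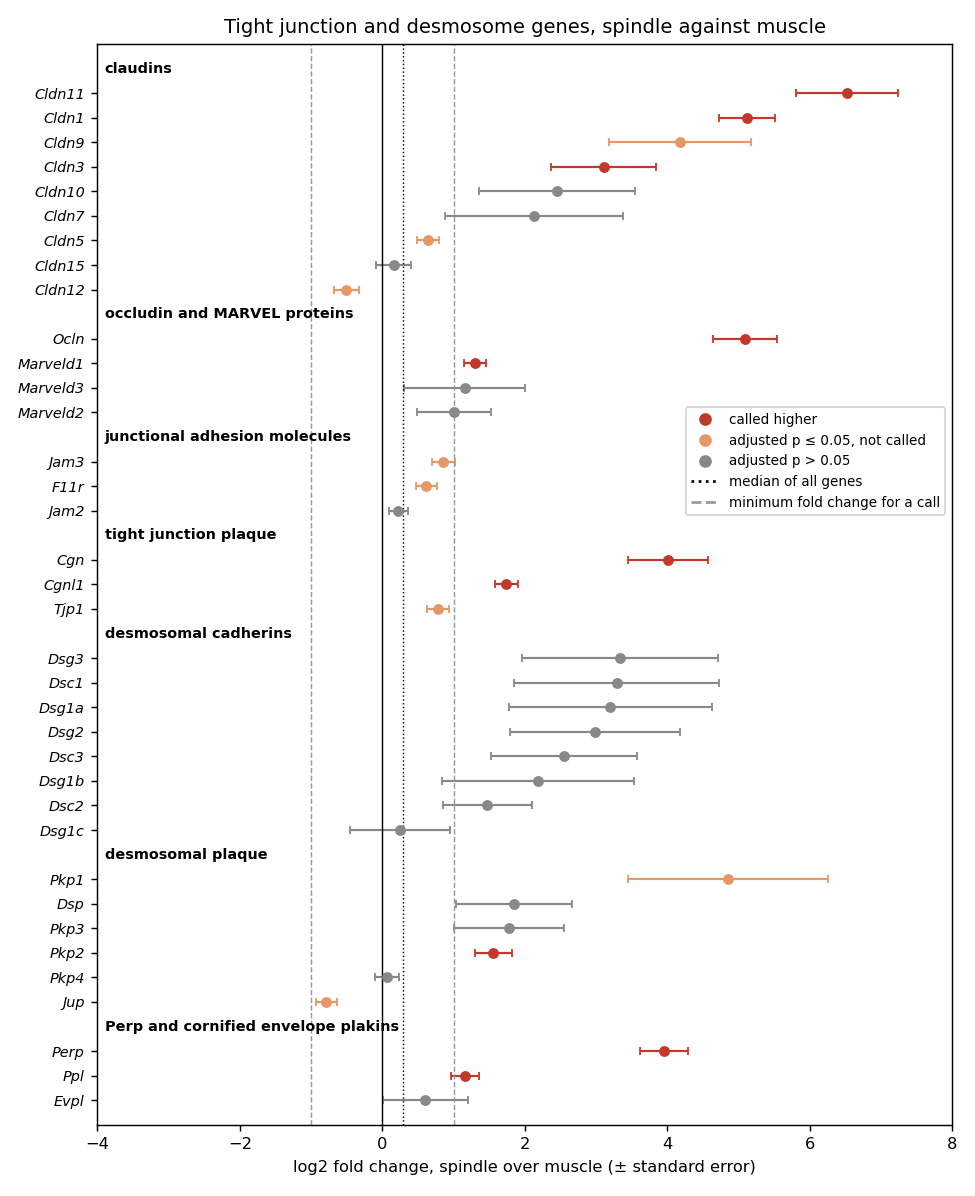
Log2 fold change, spindle over muscle, of 36 of the 37 members with its standard error, grouped by role. The 10 members called higher have values of 1.16 and above, the dotted line marks the median of all genes at 0.29, and the wide bars belong to desmosomal cadherins and other genes with few reads. The value of *Pkp1*, with no read in muscle, depends on the prior count of the fit.

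Shown here are the 250 bases before the start sites of 4 called genes, since the strand proteins *Cldn1*, *Cldn11* and *Ocln* and the plaque protein *Cgn* had the largest fold changes among the tight junction genes called. Sequences are those of RefSeq on GRCm38.p6, read 5′ to 3′ on the strand of the gene. Capitals mark matches to GGGCGG, the GC box bound by Sp1 factors, or to CCAAT, the box bound by NF-Y, on either strand. *Cldn1* lies on the minus strand of chromosome 16 (window chr16:26371840-26372089), *Cldn11* on the plus strand of chromosome 3 (chr3:31149670-31149919), *Ocln* on the minus strand of chromosome 13 (chr13:100552719-100552968) and *Cgn* on the minus strand of chromosome 3 (chr3:94786483-94786732).
Cldn1: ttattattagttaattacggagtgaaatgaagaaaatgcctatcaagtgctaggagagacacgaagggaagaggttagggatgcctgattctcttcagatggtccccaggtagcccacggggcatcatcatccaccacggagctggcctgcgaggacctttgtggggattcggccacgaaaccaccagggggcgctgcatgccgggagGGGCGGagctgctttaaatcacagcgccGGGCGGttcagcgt
Cldn11: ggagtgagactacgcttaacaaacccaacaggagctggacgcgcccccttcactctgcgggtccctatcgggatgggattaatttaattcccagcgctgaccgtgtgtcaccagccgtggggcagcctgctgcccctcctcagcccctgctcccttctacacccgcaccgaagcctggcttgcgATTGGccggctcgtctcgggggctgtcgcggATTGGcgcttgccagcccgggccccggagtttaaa
Ocln: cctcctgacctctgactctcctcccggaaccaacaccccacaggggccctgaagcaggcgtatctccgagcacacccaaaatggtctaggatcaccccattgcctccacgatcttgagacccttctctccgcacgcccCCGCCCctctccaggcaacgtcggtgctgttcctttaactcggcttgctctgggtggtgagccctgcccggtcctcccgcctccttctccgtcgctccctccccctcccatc
Cgn: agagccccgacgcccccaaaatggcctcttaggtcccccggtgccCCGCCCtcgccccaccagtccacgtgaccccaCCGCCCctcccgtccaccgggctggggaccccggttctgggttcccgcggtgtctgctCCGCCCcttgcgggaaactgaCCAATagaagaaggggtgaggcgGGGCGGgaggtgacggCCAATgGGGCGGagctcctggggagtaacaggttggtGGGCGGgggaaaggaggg

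The *Cldn1* window held 2 GC boxes close to the start site, the *Ocln* window 1 and the *Cgn* window 6, while the *Cldn11* window held none. CCAAT boxes stood in the *Cldn11* and *Cgn* windows, 2 in each. Of the 37 members, 18 had a promoter entry, and 13 of these held GGGCGG or its reverse complement CCGCCC (72.2%), against 32.7% of all 32851 promoter windows of that length. Each member has 1 window, that nearest its annotated start, while all windows include alternative promoters of the same gene. The start sites of the *Tjp1* and *Cldn15* windows, both with a match, lay 156537 and 1253 bases from the annotated start. The G and C content of the windows had a median of 61.4% over the members and 52.4% over all windows. CCAAT or ATTGG stood in 7 of the 18 windows (38.9%), against 33.8% of all windows, and TATAAA or TTTATA in 1 (5.6%), against 12.4%. CAGGTG or CACCTG, the E-box through which Snail and ZEB factors repress epithelial genes, stood in 1 window, that of *F11r* (5.6%), against 17.2%. These matches describe letters in the windows and say nothing of binding.

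Among 9 claudins, 3 were called higher and none lower. The most abundant of them was *Cldn1*, which encodes claudin 1, the sealing claudin of epidermis and perineurium. Its normalized counts were 2482, 1445, 1184, 1647 and 965 in spindle libraries 9, 10, 12, 13 and 16, against 36.2, 14.0, 24.0, 84.9, 57.3 and 42.4 in muscle libraries 9, 10, 11, 12, 13 and 16, the order of libraries used below. Every spindle library was far above the highest muscle library. The log2 fold change was 5.12 ± 0.39 (adjusted p = 3.04e-06 in edgeR), a 34.8-fold difference. *Cldn11*, known from the myelin of the central nervous system and from the barrier of the testis, had the largest fold change of the members at 6.52 ± 0.72 (adjusted p = 1.09e-06). It rests on 118 reads in spindle against 1 in muscle, a ratio of 155 after scaling with a 95% interval of 27.2 to 6159 (exact, conditional on the sum, counting error only). *Cldn3*, an epithelial claudin, was higher at 3.11 ± 0.73 (adjusted p = 0.0029), with 6.22 to 21.7 in spindle and 0 to 5.99 in muscle libraries. Without spindle libraries 10, 12 and 13, *Cldn11* kept a fold change of 5.96 and *Cldn3* one of 3.33, but their mean normalized counts fell under 5 and neither was called. *Cldn3* was also not called without spindle library 16 (2.80), after thinning all libraries to the smallest (2.61) or under the stricter count filter of edgeR.

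*Cldn5* encodes the claudin of endothelial cells. Its normalized counts were 155, 163, 147, 143 and 193 in spindle libraries and 122, 77.9, 93.4, 113, 98.7 and 111 in muscle libraries. The groups did not overlap, yet the log2 fold change of 0.64 ± 0.16 (adjusted p = 0.00408) stayed under the minimum for a call. None of 12 endothelial marker genes was called by edgeR, limma-voom or DESeq2 (median log2 fold change 0.08, 0 with an unadjusted p under 0.05 in edgeR in either direction), and their summed level overlapped, at 559 to 1109 CPM in spindle and 641 to 1111 CPM in muscle. Per 1000 reads of these markers, *Cldn5* had 8.55 to 17.9 reads in spindle and 6.42 to 10.3 reads in muscle, ranges that overlap. *Cldn12*, which has been tied to calcium uptake in the gut, ran the other way, with 159, 222, 155, 254 and 193 in spindle and 289, 254, 271, 202, 401 and 257 in muscle libraries. Spindle libraries were lower in all 5 mice although the groups overlap, and the log2 fold change of -0.51 ± 0.17 (adjusted p = 0.0271) passed the p threshold only.

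Of the 4 other claudins, *Cldn9*, known from the inner ear, was above every muscle library in every spindle library, at 5.59 to 12.1 against 0 to 2.07. It came from 37 reads in spindle against 2 in muscle, a ratio of 24.2 (95% interval 6.25 to 208), and with a log2 fold change of 4.18 ± 0.998 (adjusted p = 0.00318) it missed only the minimum mean count. *Cldn10* and *Cldn7*, both claudins of epithelia, had log2 fold changes of 2.45 and 2.13 from 24 and 17 reads in spindle and did not pass the test (adjusted p = 0.078 and 0.175). *Cldn15*, a claudin of the intestine that lets cations pass, had 38.6 to 79.8 in spindle and 31.1 to 63.9 in muscle, a log2 difference of 0.16 ± 0.25 that did not pass either (adjusted p = 0.627).

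Levels of different claudins can be compared per kilobase of exon. On that scale *Cldn1* was the highest claudin in spindle, at 319 ± 121 normalized counts per kb (SD, n = 5), and the fourth in muscle, at 8.9 ± 5.23 (SD, n = 6). *Cldn5* followed in spindle at 113 ± 14.0 per kb and was the highest in muscle at 72.5 ± 11.3 per kb. *Cldn12* came next in each tissue, at 46.5 ± 9.97 per kb in spindle and 66.0 ± 15.7 per kb in muscle, and the muscle ranges of *Cldn5* and *Cldn12* overlap. *Cldn1* thus made up 45.8 to 72.6% of the summed claudin level per kb in spindle libraries and 1.89 to 10.2% in muscle libraries. The share of *Cldn5* was 15.5 to 31.3% in spindle and 35.1 to 47.4% in muscle, and that of *Cldn12* was 5.31 to 10.8% in spindle and 27.7 to 47.8% in muscle. The 3 shares did not overlap between the tissues. *Cldn15*, *Cldn11*, *Cldn3* and *Cldn9* followed in spindle, with mean levels of 24.6, 13.3, 9.75 and 5.51 per kb, and the ranges of neighbours in this order of 4 overlap.

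**Figure D2:**
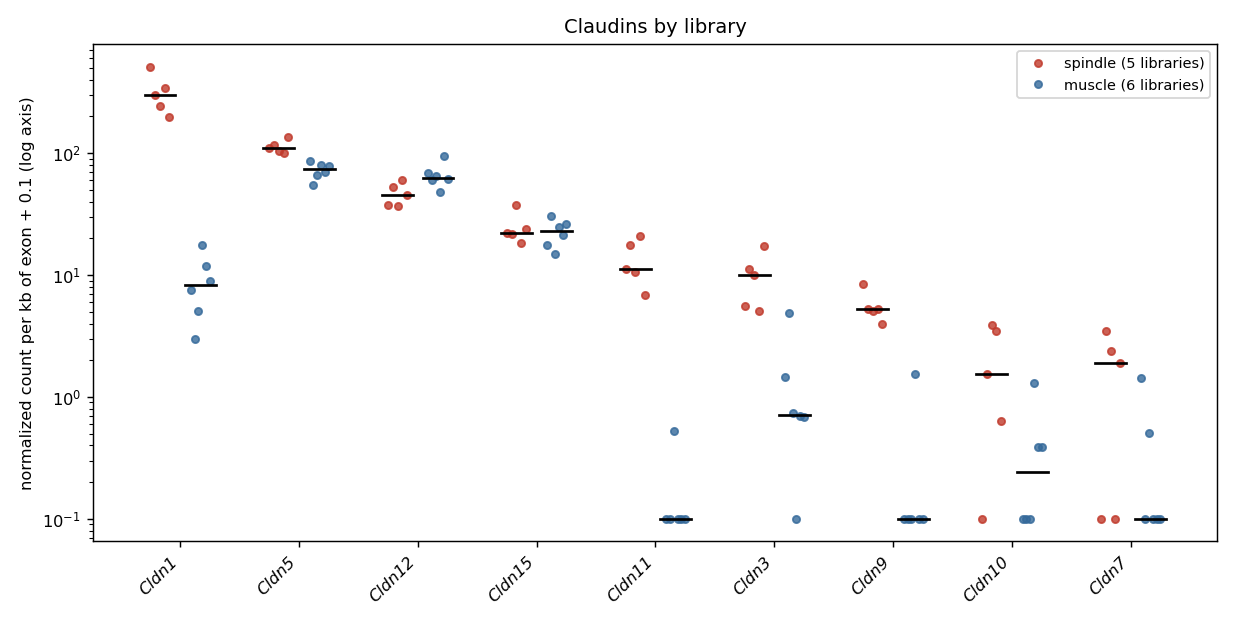
Normalized counts per kb of exon (plus 0.1, log axis) of the 9 claudins in each library, spindle left of muscle for each gene, with a line at the median. *Cldn1* stands at 199 to 513 in spindle and 2.89 to 17.5 in muscle, while *Cldn5*, *Cldn12* and *Cldn15* lie between 14.7 and 136 in both tissues.

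Both occludin and *Marveld1* of the 4 MARVEL proteins were called higher. *Ocln* encodes occludin, a strand protein of most tight junctions. Its normalized counts were 99.95, 71.0, 67.3, 102 and 48.2 in spindle libraries and 1.72, 0, 0, 6.21, 3.01 and 1.49 in muscle libraries. Every spindle library was far above the muscle libraries, in which 14 reads were counted in all. The log2 fold change was 5.09 ± 0.45 (adjusted p = 6.63e-08). *Marveld1*, a related membrane protein of less known function, was the most abundant of the 4 per kb in both tissues and had 488, 489, 395, 365 and 487 in spindle against 179, 159.9, 121, 169, 213 and 236 in muscle, with no overlap and a log2 fold change of 1.30 ± 0.16 (adjusted p = 3.43e-06). *Marveld2*, or tricellulin, which seals the points where 3 cells meet, had 34.5, 11.2, 17.0, 22.4 and 22.4 in spindle and 23.3, 0, 12.8, 5.17, 5.27 and 13.4 in muscle libraries. Groups overlapped but the spindle sample was higher in all 5 mice, and the log2 fold change of 1.0 ± 0.52 did not pass the test (adjusted p = 0.123), while it did with the mouse as a replicate block, at 1.40 (adjusted p = 0.040). *Ocln* and *Marveld2* are neighbours on chromosome 13. *Marveld3* had 0 to 13.7 in spindle and 0.743 to 5.17 in muscle and did not pass (log2 fold change 1.16 ± 0.85, adjusted p = 0.282).

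None of the 3 junctional adhesion molecules was called by edgeR, limma-voom or DESeq2, and 2 had an unadjusted p under 0.05 in edgeR. *Jam3*, an adhesion protein of endothelium and Schwann cells, had 360.2, 283, 251, 274 and 266 in spindle and 196, 99.9, 164, 180.1, 148 and 152 in muscle libraries. *F11r*, which encodes JAM-A of epithelia, endothelium and platelets, had 346, 258, 308, 246 and 301 in spindle and 209, 139.9, 153, 194, 217 and 221 in muscle. For both genes the lowest spindle library lay above the highest muscle library, with log2 fold changes of 0.86 ± 0.16 for *Jam3* (adjusted p = 3.48e-04) and 0.62 ± 0.15 for *F11r* (adjusted p = 0.00329), under the minimum for a call. With library size alone as the scaling, *Jam3* was called at 1.16. Of its exonic bases 36.2% are shared with the gene model *Gm48796*, and the use of strand in counting is not given in the sources used here. *Jam2*, an adhesion protein of endothelial cells and the most abundant of the 3 per kb, had 1320.0, 1026, 1431, 1114 and 1406 in spindle and 909, 1033, 862, 1242, 1161 and 1260.2 in muscle. Its groups overlapped, with a log2 difference of 0.22 ± 0.14 (adjusted p = 0.188) that turned to -0.069 when the median gene was set to 0. Per 1000 reads of the endothelial markers, *Jam2* had 75.7 to 152 reads in spindle and 73.1 to 90.1 in muscle.

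Of the tight junction plaque, the 2 genes of the cingulin family were called higher. *Cgn* encodes cingulin, which ties tight junctions to actin and microtubules. It was higher by a log2 fold change of 4.01 ± 0.56 (adjusted p = 1.93e-05), with 14.0 to 44.8 in spindle libraries and 0 to 3.1 in muscle libraries. *Cgnl1*, or paracingulin, which recruits regulators of small GTPases to junctions, had 410.1, 583, 419.7, 389 and 464 in spindle and 129, 198, 104, 154, 108 and 133 in muscle. The groups were well apart at a log2 fold change of 1.74 ± 0.16 (adjusted p = 1.40e-07). *Tjp1*, which encodes the scaffold ZO-1, had 1342, 1165, 1335, 914 and 1458 in spindle and 705, 591, 588, 669, 737 and 1062 in muscle. Muscle library 16, at 1062, was above the lowest spindle library, and the log2 fold change of 0.78 ± 0.16 (adjusted p = 8.09e-04) passed the p threshold only. With library size alone as the scaling, *Tjp1* was called at 1.09. Per kb, *Tjp1* was the highest of these 3 genes in both tissues and *Cgn* the lowest, at 5.14 ± 1.86 in spindle and 0.275 ± 0.255 in muscle.

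**Figure D3:**
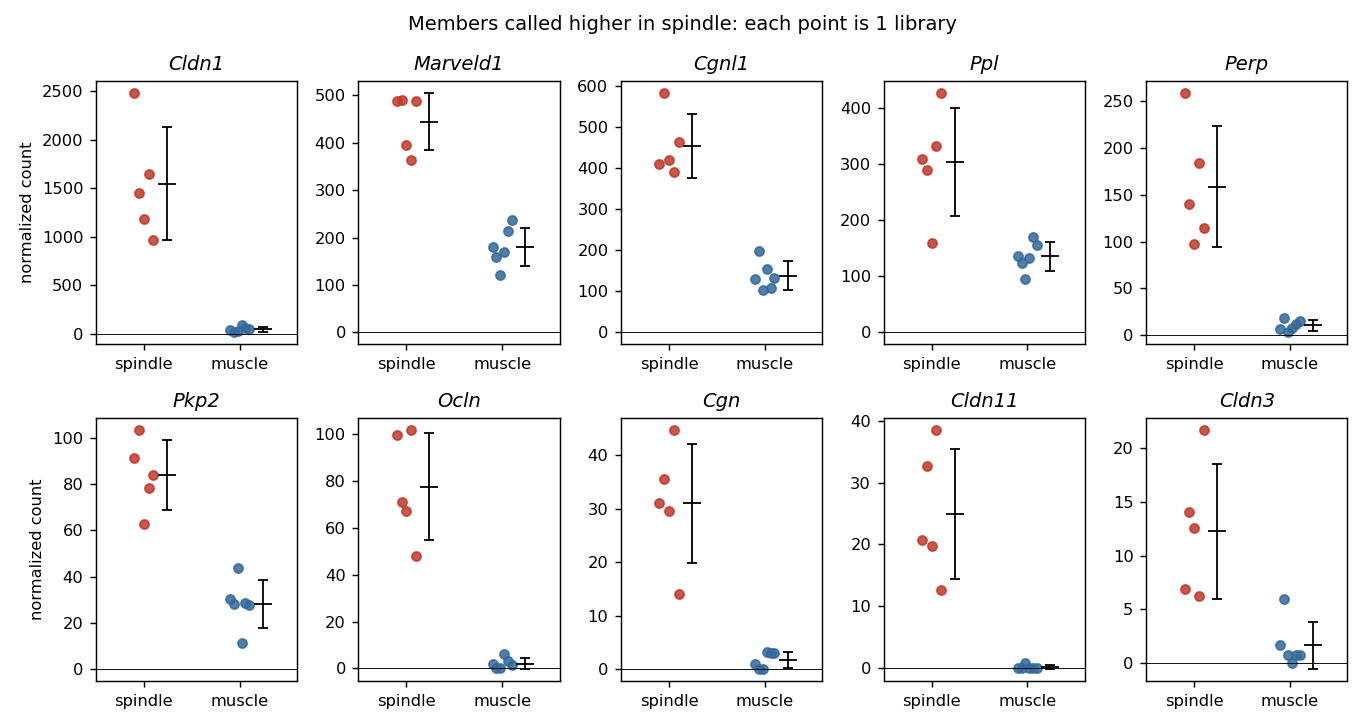
Normalized counts of the 10 members called higher, each point 1 library, spindle (5 libraries) left of muscle (6 libraries), with the mean and SD beside the points. Only *Ppl* has a spindle library (159.6) within the muscle range, and *Cldn11*, *Ocln* and *Cgn* are at or near 0 in muscle.

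Desmosomal cadherins, which form the adhesive core of desmosomes, were sparse. All 8 had positive log2 fold changes, between 0.25 and 3.33, but none was called in edgeR and all 8 had an adjusted p over 0.05. At an unadjusted p under 0.05 in edgeR 6 were higher, where the share among all genes was 31.8%. The most abundant was *Dsc2*, desmocollin 2, the desmocollin found most widely, with 29.3, 14.0, 7.17, 3.73 and 11.9 in spindle and 1.72, 7.99, 1.6, 9.31, 5.27 and 2.97 in muscle libraries. The groups overlapped, and the log2 fold change of 1.47 ± 0.62 did not pass (adjusted p = 0.066). *Dsc3*, a desmocollin of stratified epithelia, had 27.6, 4.67, 8.07, 9.95 and 0 in spindle and 0.862, 4.0, 1.6, 4.14, 0 and 0 in muscle, or 2.55 ± 1.02 as a log2 fold change (adjusted p = 0.0542). It had no read in spindle library 16 and was highest in spindle library 9. DESeq2 called both desmocollins, at 1.57 (adjusted p = 0.0454) and 2.70 (adjusted p = 0.0437), and edgeR called both without muscle library 12, at 1.79 and 3.10. Without spindle library 9, *Dsc2* was at 1.01 (adjusted p = 0.187 in edgeR) and *Dsc3* at 1.76 (adjusted p = 0.195 in edgeR). With the mouse as a replicate block *Dsc2* was at 1.11 (adjusted p = 0.243), and in limma-voom *Dsc3* was at 1.70 (adjusted p = 0.232).

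*Dsg1c* is 1 of 3 closely similar mouse copies of desmoglein 1, and reads mapped to more than 1 place were not counted. *Dsg1c* had 13.8, 6.54, 7.17, 4.98 and 0.699 in spindle and 4.31, 12.0, 2.4, 2.07, 6.03 and 6.69 in muscle, with ranges that overlap throughout (log2 fold change 0.25 ± 0.71, adjusted p = 0.798). Its copy *Dsg1b* had 0 to 13.8 in spindle and 0 to 4.0 in muscle (adjusted p = 0.201). *Dsg2*, the desmoglein of simple epithelia and heart, came from 23 reads in spindle against 3 in muscle (ratio 10.0, 95% interval 3.04 to 52.3, adjusted p = 0.0541). *Dsc1*, *Dsg1a* and *Dsg3*, genes of the upper and lower epidermis, had 14, 13 and 14 reads in spindle and 1 each in muscle. All reads of *Dsc1* and *Dsg1a* in spindle came from libraries 10 and 12, and those of *Dsg3* from libraries 10, 12 and 13, libraries in which odorant receptor reads were high. Most spindle reads of *Dsg2* (6, 12 and 2), *Dsp* (21, 14 and 7), *Pkp1* (7, 3 and 4) and *Cldn10* (4, 11 and 7) came from libraries 10, 12 and 13 too. Spindle library 9 had no read of *Dsg2*, *Dsp*, *Pkp1* or *Cldn10*, and spindle library 16 had 3, 9, 3 and 2. In the fit without spindle libraries 10, 12 and 13, *Dsc2* was at 2.11 and *Dsc3* at 2.98, neither called, and 8 of the 37 members were called. Spindle library 9, where odorant receptor reads were high too, remained in that fit.

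Of the 6 desmosomal plaque genes, 1 was called. *Pkp2* encodes plakophilin 2, an armadillo protein of heart and simple epithelia. It had 91.3, 104, 62.8, 78.4 and 83.9 in spindle and 30.2, 28.0, 43.9, 11.4, 28.6 and 27.5 in muscle. All spindle libraries were above all muscle libraries, with a log2 fold change of 1.55 ± 0.26 (adjusted p = 1.39e-04). *Jup*, which encodes plakoglobin, a protein of desmosomes and of adherens junctions, was by far the most abundant and ran the other way. It had 1747, 2653, 2894, 2236 and 3431 in spindle and 4614, 4532, 4713, 4358, 4341 and 4322 in muscle libraries. Every spindle library was lower, in all 5 mice, and the spindle libraries varied more than the muscle libraries. The log2 fold change of -0.79 ± 0.15 (adjusted p = 4.27e-04) stayed under the minimum for a call and reached it only with the median gene set to 0, at -1.08. *Pkp4*, or p0071, a relative found at both kinds of junction, had 495, 692, 660.0, 581 and 609 in spindle and 390.4, 683, 372, 622, 750.4 and 667 in muscle. Its groups overlapped, with a log2 difference of 0.07 ± 0.17 (adjusted p = 0.767).

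The 3 other plaque genes were near the limit of counting. *Pkp1*, the plakophilin of epidermis, had 17 reads in spindle against 0 in muscle, at least 7.43-fold higher in spindle against a floor of 3 reads over the muscle group, and passed the adjusted p (0.0149) but not the minimum mean count. *Pkp3*, a plakophilin of most epithelia, had 4.67 to 13.8 in spindle and 0 to 4.14 in muscle, groups that do not overlap, and did not pass (log2 fold change 1.78 ± 0.77, adjusted p = 0.0706). *Dsp* encodes desmoplakin, which anchors intermediate filaments and is an obligate part of desmosomes. It had 0 to 19.6 in spindle and 0 to 7.99 in muscle, with no read in spindle library 9, and did not pass (log2 fold change 1.85 ± 0.81, adjusted p = 0.0752). It was called without spindle library 9 (2.17, adjusted p = 0.0206 in edgeR), without muscle library 10 (2.29, adjusted p = 0.0432 in edgeR) and with library size alone as the scaling (2.20), where *Pkp3* was called too (2.06). Per kb of exon, *Jup* stood at 403 ± 99.4 normalized counts in spindle and 696 ± 25.5 in muscle, while *Dsp* stood at 0.977 ± 0.755 in spindle and 0.301 ± 0.28 in muscle. Both tissues had plakoglobin transcripts with few transcripts of desmoplakin or of desmosomal cadherins, whose mean levels were at most 2.51 per kb in spindle and 1.36 per kb in muscle.

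*Perp*, a tetraspan membrane protein of desmosomes and a target of p53 and p63, had 258, 140.1, 96.9, 184 and 114 in spindle and 6.89, 18.0, 3.19, 7.24, 12.1 and 15.6 in muscle libraries. Every spindle library was far above every muscle library, at a log2 fold change of 3.95 ± 0.34 (adjusted p = 7.01e-08). *Ppl*, which encodes periplakin, a linker of intermediate filaments in the cornified envelope of skin, had 310.2, 289, 159.6, 332 and 427 in spindle and 136, 124, 95.8, 132, 169.5 and 156 in muscle. Spindle library 12 lay within the muscle range, and the log2 fold change was 1.16 ± 0.20 (adjusted p = 2.06e-04). This call rests on the minimum fold change, with 0.999 without spindle library 16, 0.99 without spindle library 16 and muscle library 12 and 0.87 with the median gene set to 0, none of which was called. *Evpl*, which encodes envoplakin, the partner of periplakin in skin, had 6.89, 14.0, 8.97, 4.98 and 4.19 in spindle and 6.03, 4.0, 2.4, 2.07, 6.78 and 8.92 in muscle. Its groups overlapped (log2 fold change 0.60 ± 0.59, adjusted p = 0.43). Per kb, *Perp* was the higher of *Perp* and *Ppl* in spindle, at means of 81.3 ± 33.2 and 44.1 ± 14.0 with ranges that overlap and the order turned round in spindle library 16 (58.4 and 62.0), and the lower in muscle, at 5.38 ± 2.91 and 19.7 ± 3.73.

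**Figure D4:**
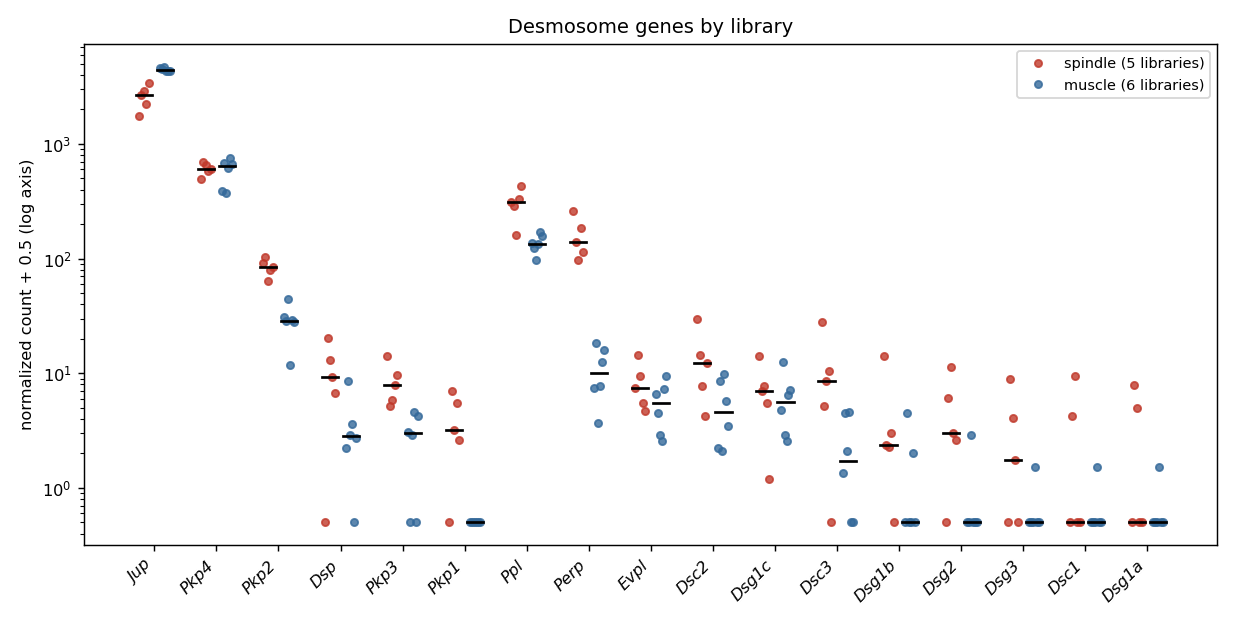
Normalized counts (plus 0.5, log axis) of the 17 desmosome genes in each library, spindle left of muscle for each gene, with a line at the median. *Jup* is the highest in both tissues and lower in spindle, *Pkp2*, *Ppl* and *Perp* are higher in spindle, and the 8 cadherins at the right stay at or below 29.3 in every library.

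The members also varied among the spindle libraries. *Cldn1* and *Perp* were highest in spindle library 9, and *Cldn1*, *Ocln*, *Cgn* and *Cldn11* were lowest in spindle library 16, which had the highest values of *Cldn3*, *Cldn5*, *Ppl* and *Jup*. The coefficient of variation across the 5 spindle libraries was 12.4% for *Cldn5*, 13.6% for *Marveld1* and 17.1% for *Cgnl1*, against 37.8% for *Cldn1*, 40.8% for *Perp* and 42.4% for *Cldn11*. Among the genes of low count it reached 155%, for *Dsc1*.

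Markers of several cell types moved with the members. All 8 perineurial marker genes had an adjusted p of at most 0.05 upward in edgeR and 7 were called higher, with a median log2 fold change of 3.71 and a summed level of 265 to 335 CPM in spindle and 51.7 to 90.4 CPM in muscle. The list includes *Slc2a1* and *Gli1*, which the study itself examined in these spindles, and is no independent evidence of direction. Per 1000 reads of these markers, *Cldn1* had 228 to 527 reads in spindle and 14.8 to 73.0 in muscle, *Perp* 23.6 to 54.8 in spindle and 3.98 to 19.0 in muscle, and *Ocln* 11.4 to 24.3 in spindle and 0 to 5.34 in muscle. For these 3 genes the ratio to the markers was higher in every spindle library than in any muscle library, but *Itga6*, the 1 marker not called, made up 63.0 to 75.3% of the marker sum in muscle and 19.1 to 30.6% in spindle. Without it, a choice made after seeing the data, the ratio of *Cldn1* still did not overlap (315 to 652 in spindle and 45.8 to 256 in muscle), while those of *Perp* (34.0 to 67.9 in spindle and 15.6 to 58.8 in muscle) and of *Ocln* (15.8 to 30.0 in spindle and 0 to 18.8 in muscle) did. The remaining markers differed from 3.12-fold (*Ntn4*) to 39.1-fold (*Lypd2*) and 69.3-fold (*Mpzl2*), and *Cldn1* 34.8-fold. The ratio thus depends on which markers make up the sum, and whether *Cldn1* differed beyond the perineurial content was not tested. Of 10 markers of myelinating Schwann cells, *Cldn19* among them, 9 were called higher, with summed levels of 695 to 1299 CPM in spindle and 103 to 357 CPM in muscle. Their part in the results was not tested.

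Markers of skin and gland epithelia were set beside the members as well. Of the epidermal keratinocyte list, 3 of 10 genes were analysed, *Krt10*, *Trp63* and *Sfn*, and none was called by edgeR, limma-voom or DESeq2 (0 with an unadjusted p under 0.05 in edgeR). They summed to 6.42 to 8.37 CPM in spindle and 5.75 to 9.15 CPM in muscle. The others of that list, *Krt5*, *Krt14*, *Krt1*, *Lor*, *Sprr1a*, *Sprr1b* and *Grhl3*, are not among the genes analysed, each of which has 5 or more reads in some library. Of the salivary gland list, 6 of 11 genes were analysed and 2 were called higher, *Bpifa2* (log2 fold change 5.95) and *Muc19* (2.91), which are secreted by salivary glands. The groups overlapped for *Muc19*, at 3.50 to 28.9 normalized counts in spindle and 0 to 12.0 in muscle. *Smr3a*, *Dcpp2* and *Dcpp3* were not called (4.17, -0.13 and -0.46, adjusted p = 0.0542, 0.946 and 0.767 in edgeR). Not among the genes analysed were *Pip*, *Smr2*, *Aqp5*, *Prol1* and *Dcpp1*. *Amy1*, an amylase of salivary glands on the same list, was lower in spindle in all 5 mice without reaching the minimum fold change, at means of 207 normalized counts in spindle and 394 in muscle (log2 fold change -0.93, adjusted p = 0.00154 in edgeR). The summed level of the 6 genes was 28.7 to 43.3 CPM in spindle and 22.5 to 38.8 CPM in muscle. The largest part of this sum was *Amy1* in muscle and *Bpifa2* in spindle, so the overlap does not compare like with like. *Bpifa2* had means of 329 normalized counts in spindle and 5.81 in muscle. The part of gland tissue in the values of the members, the epithelial *Cldn3*, *Cldn7* and *Cldn10* among them, was not tested. Nor was it tested for *Cdh1* and *Krt19* below.

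**Figure D5:**
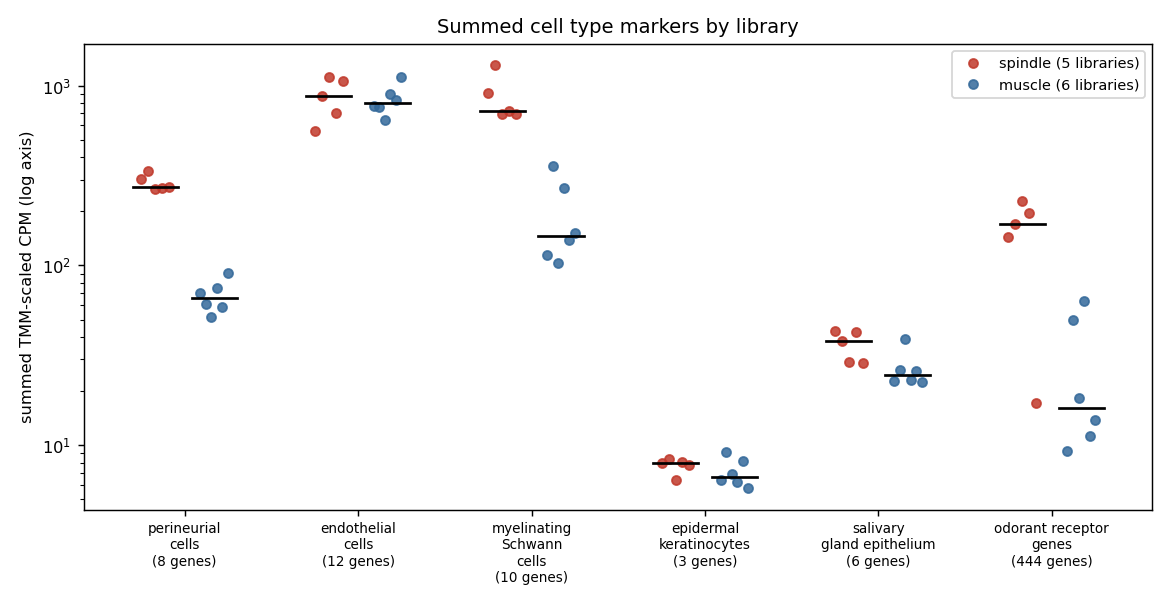
Summed TMM-scaled CPM (log axis) of 6 marker lists in each library, spindle left of muscle, with a line at the median. Perineurial and Schwann cell markers do not overlap between the tissues, while endothelial and keratinocyte markers do, and odorant receptor reads are high in 4 of 5 spindle libraries.

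The genes that work with these junctions were mixed. Of 16 adherens junction genes analysed, 4 (25%) were called higher, against 11% of all genes, and none lower, against 1.8%. Their median log2 fold change was 0.40, against 0.29 over all genes. The 3 with the smallest adjusted p were *Nectin3*, an immunoglobulin-like adhesion protein (1.19 ± 0.15, adjusted p = 9.23e-06), *Cdh11*, the cadherin of mesenchymal cells (2.91 ± 0.40, adjusted p = 9.73e-05), and *Cdh1*, the cadherin of epithelia (2.47 ± 0.42, adjusted p = 1.71e-04). *Cdh1* had 35.0 to 103 normalized counts in spindle and 4.79 to 24.0 in muscle. By the adjusted p alone, 7 of the list were higher, where the share among all genes was 23.6%, and 2 lower, where it was 15%.

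Of 23 tight junction partners, 2 (8.7%) were called higher, against 11% of all genes, and 2 lower, against 1.8%. Their share called higher and their median log2 fold change of 0.34 were close to those of all genes (11% and 0.29). *Ildr2*, an angulin of the points where 3 cells meet, had 244 to 355 in spindle and 11.2 to 24.1 in muscle and was higher at 4.17 ± 0.20 (adjusted p = 1.01e-11). *Ybx3*, a nucleic acid binding protein that docks on ZO-1 and is abundant in muscle, was lower at -1.04 ± 0.15 (adjusted p = 3.85e-05). *Amotl1*, a scaffold of the angiomotin family, passed the p threshold downward without reaching the minimum fold change (-0.70 ± 0.15, adjusted p = 0.00121). Across settings with the same call rule 1 to 6 of this list were called higher and 0 to 2 lower.

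Of 8 genes of keratins and hemidesmosomes, 2 (25%) were called higher, against 11% of all genes, and none lower, against 1.8% (median log2 fold change 0.90). *Itgb4* and *Itga6* encode the integrin of hemidesmosomes, which perineurial cells also carry, and both are on the perineurial list too. *Itgb4* had 1336 to 2074 in spindle and 31.9 to 82.5 in muscle, at 4.61 ± 0.21 (adjusted p = 7.17e-12), while *Itga6* had 805 to 1257 in spindle and 575 to 1055 in muscle, at 0.50 ± 0.16 (adjusted p = 0.0199). *Krt19*, a keratin of simple epithelia, had 76.9 to 133 in spindle and 0 to 6.21 in muscle, at 4.48 ± 0.32 (adjusted p = 3.64e-09). The tissues did not overlap for *Itgb4* and *Krt19* and overlapped for *Itga6*.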

How the data were processed

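Polyadenylated RNA of 5 spindle and 6 muscle samples was sequenced single-end, and 1 further spindle sample was left out by the authors. As deposited, values are raw counts of reads per gene. The authors mapped reads with STAR 2.4.2a to GRCm38, used GENCODE gene models and kept reads mapped to 1 place, and a gene has 5 or more reads in some library. The table also holds 22 per-sample columns of values normalized by the authors and columns of their DESeq2 1.16.1 comparison (fold changes and p-values), none of which were used.

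Counts of all 22384 genes were fitted with edgeR 4.0.16 in R 4.3.3 (TMM scaling, robust quasi-likelihood test, no mouse term), with the study's call thresholds. The scripts were tested on simulated data. Alternatives were DESeq2 1.42.0, limma-voom (limma 3.58.1), other scalings and filters, a mouse block, thinned counts and left-out libraries. Promoters came from RefSeq, gene models from GENCODE vM21, an earlier release than that of the authors. No 2 libraries agreed within sampling noise (smallest chi-square per gene 15.1).

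Spindle and muscle samples with the same number come from 1 mouse. Deviations of same-numbered samples from their group means correlated at 0.08 to 0.31 over 12557 genes, and 4 of 5 spindle samples correlated best with their own number. The mice are separate animals, while dissection or library day was not given in the sources used here. Values in every sample are given for called members averaging 20 normalized counts or more and for the 3 most abundant members of each role, and for each companion list the 3 genes with the smallest adjusted p. *Bpifa2*, *Muc19*, *Amy1*, *Smr3a*, *Dcpp2*, *Dcpp3*, *Myh4* and the remaining members named with values were added after their values were seen. All 37 members entered the fits and counts, and the values of 1 of them are not reported here. Members and lists were chosen with earlier results of these data known. Intervals and floors cover counting error only. Python 3.11.15 with matplotlib 3.10.9 drew the plots.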

Additional observations from a re-analysis of the deposited data

Results flagged for a closer look

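In 3 of 48 groups of member values tested, 1 library stood apart from the others of its group by Dixon's criterion, which chance meets in about 1 of 20 groups. Muscle library 11 had 0.798 normalized counts of *Cldn11*, a single read, where the other 5 muscle libraries had 0. Muscle library 10 had 5.99 normalized counts of *Cldn3*, from 3 reads, where the others had 0 to 1.72. Muscle library 16 had 1062 normalized counts of *Tjp1*, where the others had 588 to 737.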

How the results depend on the processing

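The count of members called higher (10) became 17 by the adjusted p alone and 17 with library size alone, and lay between 8 and 12 under the other alternatives and 9 to 12 when 1 library was left out. The count called lower (0) became 2 by the adjusted p alone and 1 with the median gene at 0, and was 0 in all fits without 1 library (0 to 0). The median log2 fold change (1.74) was 1.002 with the stricter count filter, which left 20 members, 1.26 without spindle libraries 10, 12 and 13, 1.40 in limma-voom, 1.45 with the median gene at 0, 2.06 with library size alone, and 1.47 to 1.79 when 1 library was left out, lowest without spindle library 10. With the mouse as a replicate block (paired samples), 11 members were called higher and the median was 1.66. *Marveld2* joined the calls and no other call changed. Of 499 values of the 24 members named by rule under the alternatives, 467 kept direction and side of the thresholds, 15 passed and 7 no longer passed them, and 10 turned round. Outside those 24, *Dsp* was called without spindle library 9 and without muscle library 10, and *Dsp* and *Pkp3* with library size alone. The values that turned round were *Jam2* at -0.069 (median gene at 0), *Dsg1c* at -0.087 (limma-voom), -0.047 (median gene at 0), -0.065 (replicate block) and -0.16 to 0.57 when 1 library was left out (lowest without spindle library 9), and *Pkp4* at -0.069 (without spindle libraries 10, 12 and 13), -0.22 (median gene at 0), -0.022 (replicate block) and -0.0396 to 0.15 when 1 library was left out (below 0 without muscle library 9 or 11). The causes were not tested. By the adjusted p alone, 7 adherens junction genes were higher and 2 lower, against 4 and 0, and 8 tight junction partners were higher and 4 lower, against 2 and 2. Among all genes 23.6% were higher and 15% lower by the adjusted p alone. Depth limits the desmosomal cadherins, with 13 to 60 reads each over all spindle libraries, and other sparse members such as *Pkp1* and *Cldn7*, with 17 each.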
